A study of Homo sapiens with 6 samples.

Results

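The class 3 semaphorins, their neuropilin co-receptors and their plexin receptors were followed through 2 lineages of taxane-resistant prostate cancer cells. The set is a fixed list of 10 genes, namely SEMA3A, SEMA3C, SEMA3D, SEMA3E, SEMA3F, NRP1, NRP2, PLXNA1, PLXNA2 and PLXND1, out of 60658 gene identifiers in the files. All 10 were found, and 9 of them reached 1 FPKM in at least 1 library. FPKM counts fragments per length of transcript and per size of library. PLXNA2 did not reach that level.

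Each line gave 1 library. C4-2B is an androgen receptor-positive, castration-resistant line derived from LNCaP, and DU145 is an androgen-independent prostate carcinoma line. TaxR is docetaxel-resistant C4-2B, and its sample title also carries the unexplained word old. DTXR is docetaxel-resistant DU145, and both sublines were kept under 5 nM docetaxel. CabR is cabazitaxel-resistant TaxR and CTXR is cabazitaxel-resistant DTXR, both kept under 5 nM cabazitaxel. Both drugs are taxanes, which stabilise microtubules, and all 6 lines were untreated before harvest. Each resistant subline is 1 selected line and each library is 1 sample. No difference between a pair of lines therefore has a replicate check or a p-value.

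Class 3 semaphorins are secreted guidance proteins, first known for steering axons and also active in vessels and tumours. Most of them bind a neuropilin, which has little signalling of its own and forms a complex with a plexin. The plexin carries a GTPase-activating domain for small GTPases in its cytoplasmic part and changes the cytoskeleton and adhesion. SEMA3E is the exception, since it can bind PLXND1 without a neuropilin. Neuropilins also bind forms of VEGF, the vascular growth factors.

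SEMA3C, SEMA3E, SEMA3A and SEMA3D lie in this order along chromosome 7, on the same arm as the drug efflux gene ABCB1, and SEMA3F lies on chromosome 3. Promoter sequences in RefSeq (GRCh38.p14, 250 bases before to 50 after a gene start) were found for 8 of the 10 genes, at 12 starts. SEMA3A and NRP1 had no entry. The sequences of 3 ligands are shown because they have the greatest log2 differences between the parental lines, SEMA3C and SEMA3E being higher in DU145 and SEMA3F in C4-2B. Capitals mark CpG dinucleotides, the sites of DNA methylation, which was not measured here. SEMA3E and SEMA3F are shown at the first of their 2 and 3 listed starts. SEMA3C has 2 listed starts, at chr7:80922340-80922639 and chr7:80919002-80919301, SEMA3E is shown at chr7:83649090-83649389 (these 3 on the minus strand) and SEMA3F at chr3:50154808-50155107 (plus strand).
SEMA3C, first start: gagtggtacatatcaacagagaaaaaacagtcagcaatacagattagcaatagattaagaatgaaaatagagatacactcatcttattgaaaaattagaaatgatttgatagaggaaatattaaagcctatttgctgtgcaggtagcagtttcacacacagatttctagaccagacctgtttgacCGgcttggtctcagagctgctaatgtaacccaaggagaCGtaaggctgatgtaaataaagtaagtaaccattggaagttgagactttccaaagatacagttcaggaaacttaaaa
SEMA3C, other start: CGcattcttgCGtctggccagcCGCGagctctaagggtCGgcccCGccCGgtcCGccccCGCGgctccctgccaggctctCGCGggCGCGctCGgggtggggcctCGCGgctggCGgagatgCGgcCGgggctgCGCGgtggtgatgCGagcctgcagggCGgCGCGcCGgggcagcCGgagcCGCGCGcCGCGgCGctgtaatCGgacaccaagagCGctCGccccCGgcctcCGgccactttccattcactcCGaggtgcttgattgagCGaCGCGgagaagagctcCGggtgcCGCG
SEMA3E: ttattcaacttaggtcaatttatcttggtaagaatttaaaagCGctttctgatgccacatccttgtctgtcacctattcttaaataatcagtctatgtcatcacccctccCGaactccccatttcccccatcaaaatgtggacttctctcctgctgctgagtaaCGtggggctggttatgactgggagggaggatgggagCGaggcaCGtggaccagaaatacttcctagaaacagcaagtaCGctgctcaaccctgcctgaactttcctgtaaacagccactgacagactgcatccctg
SEMA3F: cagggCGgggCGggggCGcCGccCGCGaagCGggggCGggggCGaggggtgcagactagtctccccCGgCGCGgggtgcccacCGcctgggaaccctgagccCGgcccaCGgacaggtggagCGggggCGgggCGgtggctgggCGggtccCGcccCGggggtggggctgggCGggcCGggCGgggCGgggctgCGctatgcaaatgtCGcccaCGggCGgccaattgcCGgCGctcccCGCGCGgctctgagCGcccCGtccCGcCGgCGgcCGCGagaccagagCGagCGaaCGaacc

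The other SEMA3C start held 46 CpG and the SEMA3F window 44, against a median of 14 over 35116 promoter windows of the same length. The first SEMA3C start held 2 and the SEMA3E window 6. Of the starts not shown, that of SEMA3E held 1 and those of SEMA3F 47 and 2. The GC box GGGCGG, searched on both strands with overlapping matches counted, was found 12 times in the SEMA3F window and 3 times at the other SEMA3C start. It was not found at the first SEMA3C start or in the SEMA3E window, and 45.0% of all windows held it. CCAAT occurred 1 time each at the first SEMA3C start and in the SEMA3F window (34.6% of all windows), and neither TATAAA (11.5%) nor TGANTCA (7.71%) occurred in these 4 windows. These are matches of letters only, and the files do not say which start was used.

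The labels were checked against marker genes. The 6 luminal and androgen receptor markers summed to between 2108 and 4746 FPKM in the C4-2B lineage and to between 1.56 and 2.59 in the DU145 lineage. The epithelial markers EPCAM, KRT8 and KRT18 exceeded 1 FPKM in all 6 lines, and E-cadherin CDH1 was under 1 FPKM in the DU145 lineage. Markers of endothelial cells, which also use neuropilins and plexins, summed to at most 2.06 FPKM in any library, and the leukocyte gene PTPRC was listed at 0 throughout. ABCB1 had 0.259 FPKM in parental C4-2B, 526 in its subline TaxR and 936 in CabR, and 0.304 in parental DU145, 68.0 in its subline DTXR and 94.2 in CTXR. TaxR also carried DU145-side transcripts. At 5 markers nearly absent from C4-2B it held 0.362% to 2.03% of the DU145 level (median 1.21%), against a median of 0.0479% in CabR. As a measure of depth, judged from the smallest FPKM of single-transcript genes, 1 FPKM over 1 kb of transcript stood for about 13.9 fragments in C4-2B, the shallowest library, and 21.0 in CTXR, the deepest. In bulk RNA, fewer cells that express a gene and less RNA per cell cannot be told apart.

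Among the 9 measured members, on the log2(FPKM + 1) scale, DTXR differed most from DU145 in 1 ligand and 1 co-receptor. SEMA3A and NRP1 were higher in DTXR than in DU145, at 12.8-fold and 7.23-fold the parental FPKM, and both were lower again in CTXR. Of the 9 measured members, 2 were past the size rule in DTXR, a log2 ratio of (FPKM + 1) of at least 1, and both were higher. Over all 17436 measured genes 5.37% were higher in DTXR, and the members' share rests on 2 genes. These 2 were also the members past the rule from DTXR to CTXR, where both were lower (5.25% of all measured genes) and none was higher (7.29%). NRP1 alone was past it in CTXR against DU145 (7.45% higher among all). Of the 5 leukocyte markers CD68 alone exceeded 1 FPKM in the DU145 lineage, at 9.07 FPKM in parental DU145, 82.4 in its subline DTXR and 25.8 in CTXR, the order in which NRP1 stood as well. PTPRC and CD3E were at 0 there, and the part of CD68-expressing cells in the result was not tested.

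SEMA3A (ENSG00000075213, chromosome 7, 83955777 to 84492724, minus strand, GRCh38) is the classical repulsive guidance ligand of NRP1 with A-type plexins. C4-2B listed it at 0, beside 0.00743 FPKM in its subline TaxR and 0.0200 in CabR. The DU145 lineage had 1.29 FPKM in parental DU145, 16.6 in its subline DTXR and 0.630 in CTXR. DTXR was thus the only one of the 6 libraries in which SEMA3A exceeded 2 FPKM. The log2 ratio was 2.94 from DU145 to DTXR, -3.43 from DTXR to CTXR and -0.49 from DU145 to CTXR. At the longest annotated transcript these levels correspond to about 170 fragments in DU145, 2335 in DTXR and 109 in CTXR, and to fewer than 3 fragments in each C4-2B line.

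NRP1 (ENSG00000099250, chromosome 10, 33177492 to 33336262, minus strand) encodes the co-receptor that binds SEMA3A and also the main VEGFA isoforms. It had 7.17 FPKM in parental C4-2B, 8.78 in its subline TaxR and 7.60 in CabR, and 2.29 in parental DU145, 16.6 in its subline DTXR and 7.22 in CTXR. The C4-2B lines lay close together, and the DU145 lines held both the lowest and the highest value of the 6. The log2 ratios were 2.42 in DTXR and 1.32 in CTXR against DU145, and -1.10 from DTXR to CTXR. In the C4-2B lineage they were 0.26 in TaxR and 0.07 in CabR. DU145 was also lower than C4-2B, at -1.31, and the CTXR value fell between those of the C4-2B lines.

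**Figure D1:**
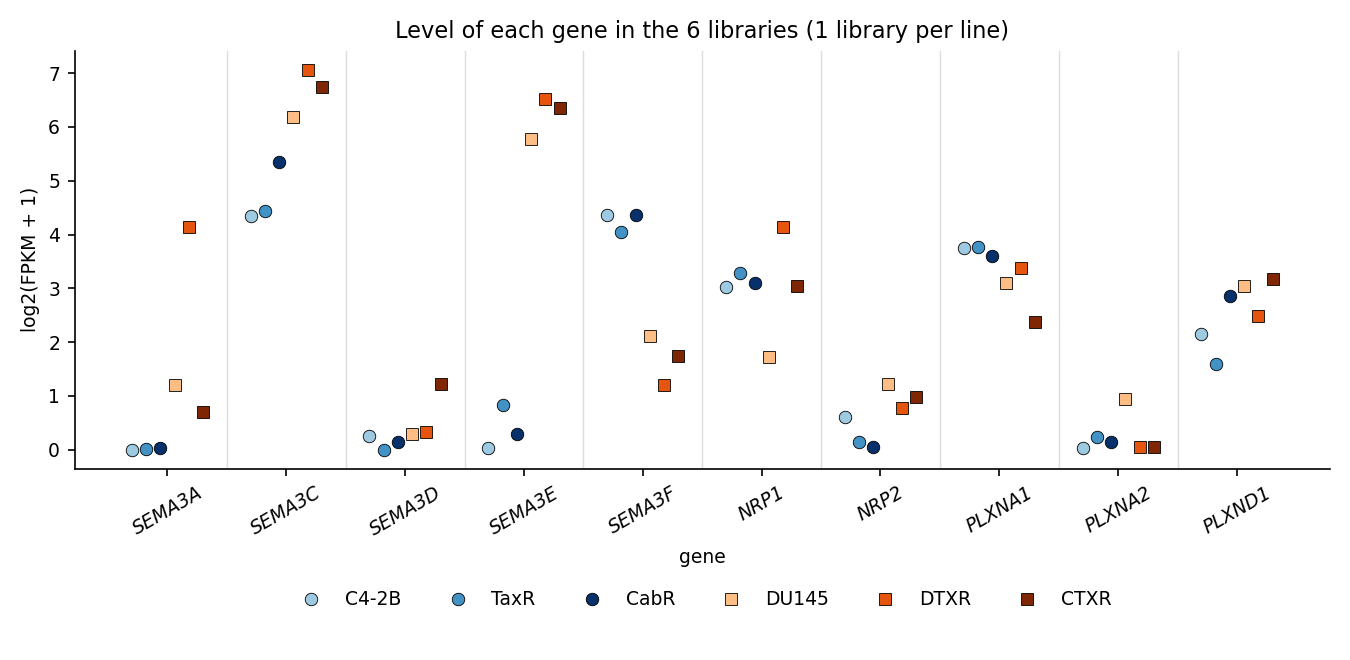
Level of the 10 genes as log2(FPKM + 1) in each of the 6 libraries, circles for the C4-2B lineage and squares for the DU145 lineage, 1 point per library. SEMA3E and SEMA3C lie higher and SEMA3F lower in all DU145 lines, and the DTXR points of SEMA3A and NRP1 stand above those of the other 5 libraries.

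SEMA3C and SEMA3E made up most of the class 3 ligand mRNA of the DU145 lines. SEMA3C (ENSG00000075223, chromosome 7, 80742538 to 80922359, minus strand) encodes a ligand of NRP1 and NRP2 that is known to promote growth of prostate cancer cells. It had 19.2 FPKM in parental C4-2B, 20.7 in its subline TaxR and 39.5 in CabR, and 72.0 in parental DU145, 133 in its subline DTXR and 106 in CTXR. All DU145 lines were above all C4-2B lines, and each subline was above its parent. The log2 ratio to the parent was 0.11 in TaxR and 1.002 in CabR, and 0.87 in DTXR and 0.55 in CTXR. SEMA3C was the single member past the rule in CabR against C4-2B (2.67% of all measured genes were higher). With every library brought to one total FPKM its ratio was 0.91, short of the rule.

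SEMA3E (ENSG00000170381, chromosome 7, 83363238 to 83649113, minus strand), the ligand of PLXND1, was abundant in the DU145 lineage and under 1 FPKM in the other. It had 53.8 FPKM in parental DU145, 90.4 in its subline DTXR and 80.8 in CTXR. In the C4-2B lineage it had 0.0248 FPKM in parental C4-2B, 0.782 in its subline TaxR and 0.227 in CabR. The log2 ratio from C4-2B to DU145 was 5.74, the greatest difference of the 10 genes between the parental lines. The ratios to the parent were 0.74 in DTXR and 0.58 in CTXR, below the rule. In TaxR the ratio was 0.80, and the TaxR level was 1.45% of the DU145 level, within the range of the DU145-side markers given above. With 1.21% of the DU145 level, the median share, removed TaxR held 0.130 FPKM, a ratio of 0.14. The marker shares in TaxR ranged from 0.362% to 2.03%, so the amount to remove is uncertain. In CabR SEMA3E was at 0.422% of the DU145 level, above the highest marker share there, 0.194% for DKK1. The part of DU145-side transcripts in these values was not tested.

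SEMA3F (ENSG00000001617, chromosome 3, 50155045 to 50189075, plus strand) encodes the ligand that prefers NRP2 and is known as a tumour suppressor candidate of the short arm of chromosome 3. It had 19.6 FPKM in parental C4-2B, 15.6 in its subline TaxR and 19.6 in CabR. It had 3.31 FPKM in parental DU145, 1.30 in its subline DTXR and 2.34 in CTXR. Every C4-2B line exceeded every DU145 line, and DTXR held the lowest value. The log2 ratio was -2.25 from C4-2B to DU145 and -0.90 from DU145 to DTXR. SEMA3F was therefore not past the rule in DTXR, but with a pseudocount of 0.5 it was, at -1.08. The antisense gene SEMA3F-AS1 overlaps it and was listed at 0 in all libraries.

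SEMA3D (ENSG00000153993, chromosome 7, 84995553 to 85186855, minus strand), a ligand described in heart and vessel development, was low everywhere. TaxR listed it at 0, beside 0.189 FPKM in parental C4-2B and 0.110 in CabR. The DU145 lineage had 0.233 FPKM in the parental line, 0.264 in DTXR and 1.33 in CTXR. CTXR was the single library over 1 FPKM, with about 175 fragments against 23 in DU145 and 28 in DTXR. Its log2 ratio of 0.92 to DU145 was under the rule.

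With SEMA3B and SEMA3G added, which makes 7 class 3 genes, the ligand mRNA came to 63.7 FPKM in parental C4-2B, 49.7 in its subline TaxR and 78.5 in CabR, and 139.9 in parental DU145, 244 in its subline DTXR and 202 in CTXR. In C4-2B this sum was spread over SEMA3B (30.7%), SEMA3F (30.7%) and SEMA3C (30.1%). In CabR SEMA3C held 50.3% of it. In DU145 SEMA3C held 51.5% and SEMA3E 38.4%, and in CTXR they held 52.5% and 40.0%. SEMA3A held 0.93% in parental DU145, 6.80% in its subline DTXR and 0.31% in CTXR. The sum was thus higher in both resistant DU145 lines than in their parent, while the shares of SEMA3C and SEMA3E each lay within 3 percentage points of the parent's.

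**Figure D2:**
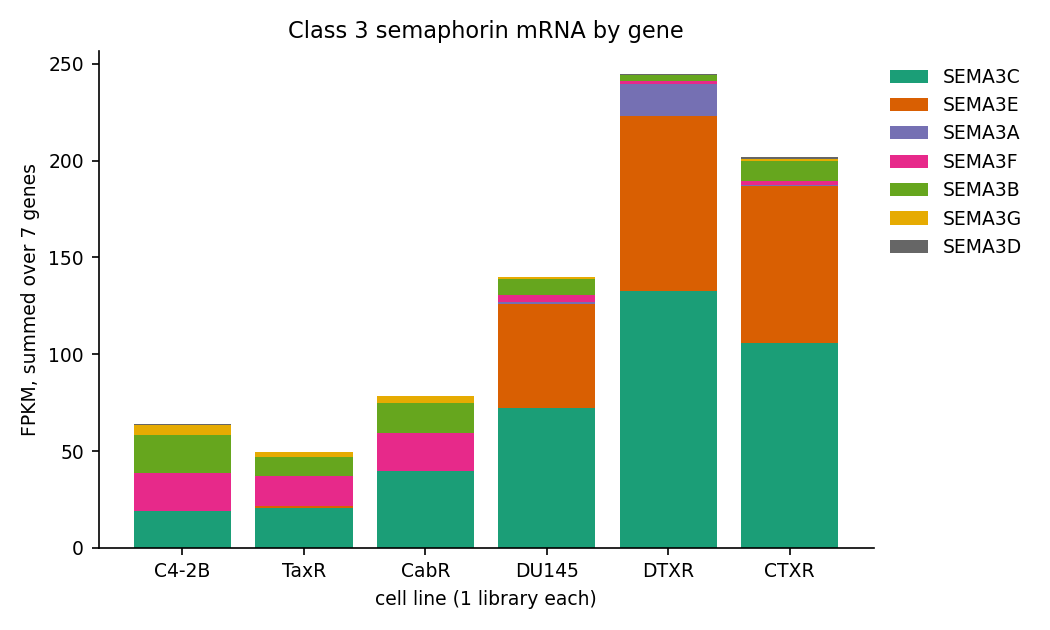
FPKM of the 7 class 3 semaphorin genes stacked per line, 1 library each. SEMA3C and SEMA3E fill most of the DU145-lineage bars, SEMA3A is visible in DTXR, and SEMA3F and SEMA3B make up most of the rest in the C4-2B lineage.

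NRP2 (ENSG00000118257, chromosome 2, 205681990 to 205798133, plus strand), the co-receptor for SEMA3F and VEGFC, was near 1 FPKM or lower in all lines. It had 0.531 FPKM in parental C4-2B, 0.112 in its subline TaxR and 0.0418 in CabR, and 1.32 in parental DU145, 0.712 in its subline DTXR and 0.970 in CTXR. Against the parent the log2 ratio was -0.46 (TaxR), -0.56 (CabR), -0.44 (DTXR) and -0.24 (CTXR). These ratios understate a low gene, since the raw FPKM were 4.76-fold and 12.7-fold lower in TaxR and CabR than in C4-2B, on about 49, 11 and 4.8 fragments. Of the summed neuropilin FPKM, NRP1 held 93.1% in parental C4-2B, 98.7% in its subline TaxR and 99.5% in CabR, and 63.4% in parental DU145, 95.9% in its subline DTXR and 88.2% in CTXR.

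Among the plexins, PLXNA1 (ENSG00000114554, chromosome 3, 126988594 to 127037392, plus strand), a signalling partner of NRP1 for SEMA3A, exceeded 4 FPKM in all lines. It had 12.5 FPKM in parental C4-2B, 12.6 in its subline TaxR and 11.2 in CabR, and 7.56 in parental DU145, 9.34 in its subline DTXR and 4.19 in CTXR. The C4-2B lines were all above the DU145 lines. From DTXR to CTXR the log2 ratio was -0.99, just under the rule, and with a pseudocount of 0.5 it was -1.07, past it. PLXND1 (ENSG00000004399, chromosome 3, 129555175 to 129606818, minus strand), the SEMA3E receptor, had 3.44 FPKM in parental C4-2B, 2.03 in its subline TaxR and 6.23 in CabR, and 7.19 in parental DU145, 4.58 in its subline DTXR and 7.98 in CTXR. Both docetaxel-resistant lines were lower than their parent (-0.55 and -0.55) and both cabazitaxel-resistant lines higher than the line they came from. That step was 1.26 from TaxR to CabR, the single member past the rule there (1.75% of all measured genes were higher and 1.84% lower), and 0.69 from DTXR to CTXR.

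PLXNA2 (ENSG00000076356, chromosome 1, 208022242 to 208244320, minus strand), another A-type plexin, stayed under 1 FPKM and was not tested. It had 0.0280 FPKM in parental C4-2B, 0.176 in its subline TaxR and 0.107 in CabR, and 0.924 in parental DU145, 0.0334 in its subline DTXR and 0.0305 in CTXR. DU145 was the highest library, with about 168 fragments against 6.53 in DTXR and 7.33 in CTXR, so the raw FPKM was 27.6-fold lower in DTXR and 30.3-fold lower in CTXR.

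**Figure D3:**
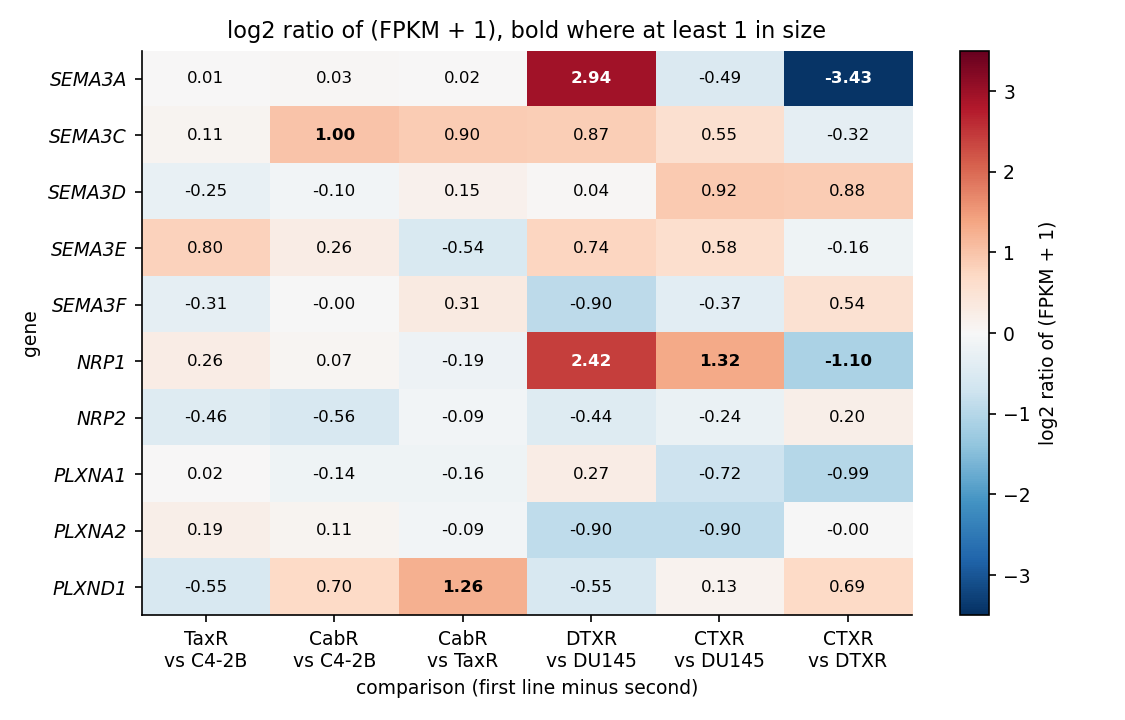
Difference in log2(FPKM + 1) for each gene (rows) and the 6 comparisons within a lineage (columns, first line minus second), red for higher and blue for lower, with values of at least 1 in size in bold. The bold cells are SEMA3A, NRP1, SEMA3C and PLXND1, and none lies in the column of TaxR against C4-2B.

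In the C4-2B lineage few of these genes were past the rule. No member of 9 was past the rule in TaxR, where 2.52% of all measured genes were higher and 5.64% lower. In CabR 1 member was, where 2.67% of all measured genes were higher and 6.2% lower. The median log2 ratio of the members was 0.01 in TaxR and 0.03 in CabR, beside -0.00 for all measured genes in both. Both member medians are the ratio of SEMA3A, which had about 0.91 fragments in TaxR and 2.8 in CabR. They therefore describe a nearly absent gene rather than the family. In the DU145 lineage the medians were 0.27 in DTXR and 0.13 in CTXR, beside 0.00 in both. No member was lower past the rule against its parent in any of the 4 sublines. The shares of all measured genes were 5.64% (TaxR), 6.2% (CabR), 5.1% (DTXR) and 5.47% (CTXR). On this scale a gene under 1 FPKM in the parent cannot be lower past the rule. That held for SEMA3A, SEMA3D, SEMA3E and NRP2 in C4-2B, and for SEMA3D in DU145. The absence of lower members was therefore partly fixed in advance. With a pseudocount of 0.1, NRP2 was lower past the rule in both C4-2B sublines, SEMA3D in TaxR and SEMA3F in DTXR.

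Between the parental lines 5 of the 9 measured members were past the rule. DU145 against C4-2B had SEMA3A, SEMA3C and SEMA3E higher (17.3% of all measured genes) and SEMA3F and NRP1 lower (19.5%). In 7 of the 9 measured members the 3 C4-2B lines did not overlap with the 3 DU145 lines, beside 55.9% of all measured genes. The DU145 lines were higher in 5 (27.2% of all) and the C4-2B lines in SEMA3F and PLXNA1 (28.6%). SEMA3A, SEMA3D, SEMA3E and NRP2 passed the filter through DU145 lines alone, so that count is not evidence about the family. The 3 lines of a lineage share an origin and are not independent, so no test was made. Mitochondrial genes also took different shares of all FPKM, 17.9% to 27.9% in the C4-2B lineage and 35.3% to 40.7% in the DU145 lineage, and the part of this in the differences was not tested.

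The same selection made in both parental lines allowed 1 test. A limma fit with terms for stage and lineage was made over the 6 libraries. After Benjamini-Hochberg adjustment it called no member in either stage, and none of the 17436 genes (0%). ABCB1 was thus not called either, though its log2 ratios to the parent lay between 5.73 (DTXR) and 9.54 (CabR). A fit that misses differences of that size cannot decide whether a member changed. At an unadjusted p under 0.05 limma had 772 genes and 2 members for docetaxel resistance, and 835 genes and 1 member for cabazitaxel resistance. Both gene counts are below the share that this threshold lets through when nothing differs. The estimates that follow are therefore descriptions only. For NRP1 the docetaxel-stage log2 difference was 1.34 ± 0.50 (SE, limma adjusted p = 0.93), and for SEMA3E it was 0.77 ± 0.28 (limma adjusted p = 0.93). For SEMA3C the cabazitaxel-stage difference was 0.78 ± 0.33 (limma adjusted p = 0.86). For SEMA3A the docetaxel-stage difference was 1.48 ± 0.79 (limma adjusted p = 0.93). SEMA3A was nearly absent from the C4-2B lineage. The log2 ratios behind these 4 differences were positive in both lineages, though that of SEMA3A in TaxR was 0.01 and that of SEMA3E in TaxR moved to 0.14 with the DU145-side share removed.

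The 4 semaphorin genes of chromosome 7 were set beside their neighbours. From the ABCB1 start, the starts lay at -6.79 Mb for SEMA3C, -4.06 Mb for SEMA3E, -3.22 Mb for SEMA3A and -2.53 Mb for SEMA3D, where minus means towards lower coordinates. Between SEMA3C and ABCB1 the annotation holds 14 coding genes, of which 12 were measured. Of the 7 that are neither semaphorins nor ABCB1, 5 were higher in DTXR (median log2 ratio 2.01, beside 5.37% of all measured genes higher) and 5 in CTXR (2.05, beside 7.45%), where CACNA2D1 was lower. Among the 4 semaphorins, SEMA3A alone was past the rule in DTXR and none was in CTXR.

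Along the arm in DTXR the log2 ratio to DU145 was 0.87 for SEMA3C, 0.81 for the calcium channel subunit CACNA2D1, 1.13 for the synaptic gene PCLO, 0.74 for SEMA3E, 2.94 for SEMA3A and 0.04 for SEMA3D. Nearer ABCB1 it was 3.78 for the glutamate receptor GRM3, 0.77 for ELAPOR2, 2.01 for DMTF1, 2.83 for TMEM243 and 2.43 for CROT. The SEMA3A value thus stood 2 or more above those of its semaphorin neighbours on either side. In CTXR, SEMA3A was at -0.49 and CACNA2D1 at -2.14, while GRM3 stayed at 4.47 and TMEM243 at 3.47. In the C4-2B lineage, where ABCB1 had the higher level, the 7 genes had a median of -0.37 in TaxR and -0.26 in CabR. There CROT was higher (1.34) and PCLO lower (-1.16) in CabR. RUNDC3B, which overlaps ABCB1 on the opposite strand and is not among the 7, had log2 ratios of 3.53 in TaxR and 4.33 in CabR, and 1.47 in DTXR and 0.73 in CTXR. Whether strand was used in counting is not stated, so its values are uncertain.

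**Figure D4:**
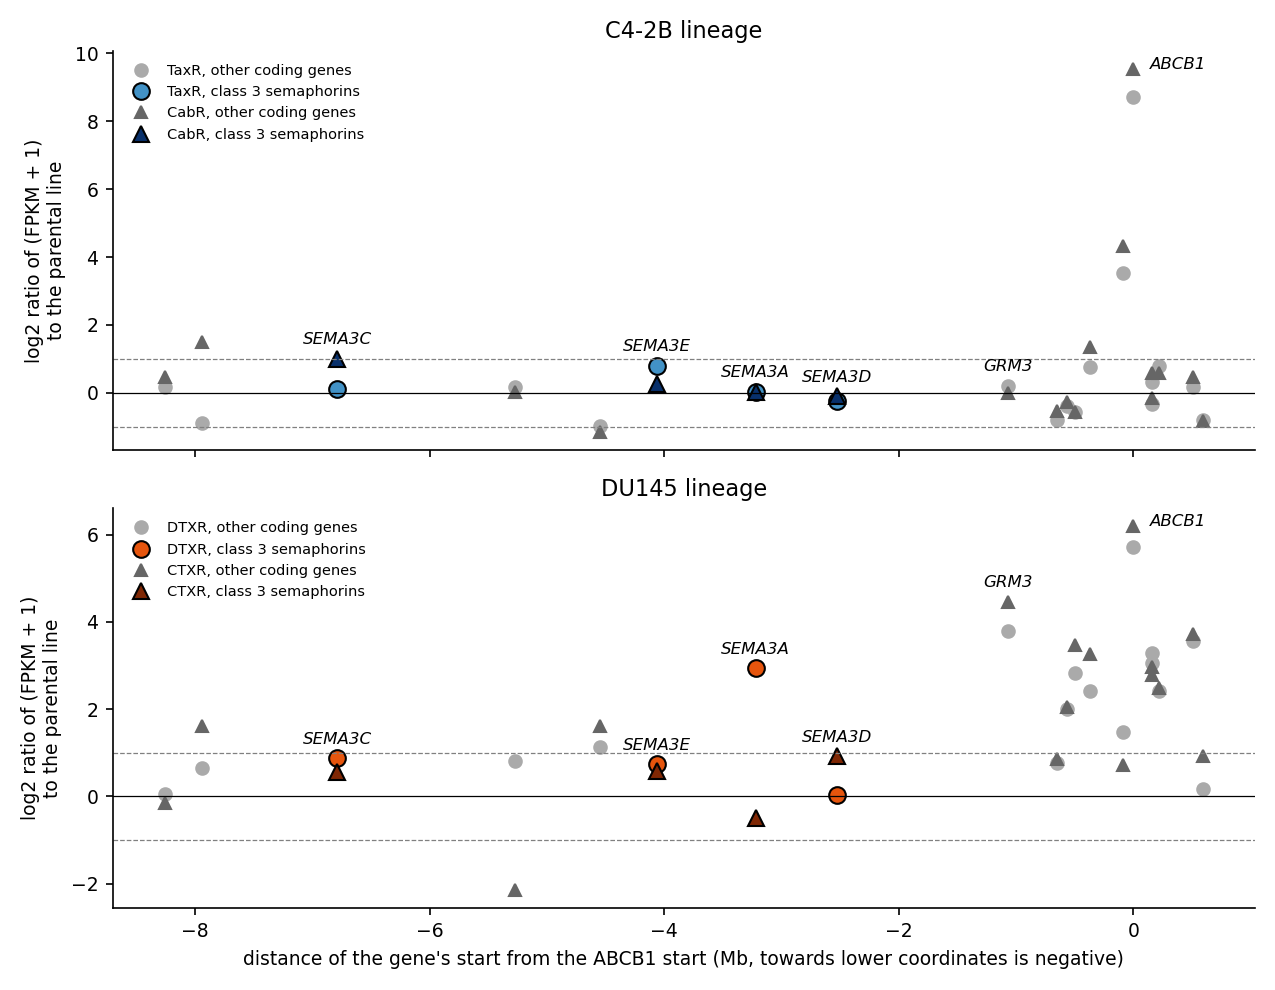
Difference in log2(FPKM + 1) from the parental line against distance from the ABCB1 start in Mb, for measured coding genes, with the C4-2B lineage above and the DU145 lineage below (circles docetaxel-resistant, triangles cabazitaxel-resistant, class 3 semaphorins coloured, dashed lines at 1 and -1). In the DU145 lineage GRM3 and the genes around ABCB1 lie mostly above the dashed line, and of the semaphorins SEMA3A does so in DTXR.

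The wider pathway was read from lists of other genes. Of the 2 other class 3 ligands, both measured, SEMA3B was lower in DTXR (8.55 FPKM in parental DU145, 3.10 in its subline DTXR, 10.2 in CTXR) and higher from DTXR to CTXR (log2 ratio 1.45). It had 19.6 FPKM in parental C4-2B, 9.62 in its subline TaxR and 15.4 in CabR. None of the 4 measured other plexins was past the rule in any subline against its parent. Of all measured genes 2.52% were higher and 5.64% lower in TaxR, and 2.67% and 6.2% in CabR. In DTXR these shares were 5.37% and 5.1%, and in CTXR 7.45% and 5.47%. The A-type plexin PLXNA3 in CabR came closest to the rule. It had 11.1 FPKM in parental C4-2B, 6.27 in its subline TaxR and 5.18 in CabR. Of 10 measured semaphorins of classes 4 to 7, which are mostly membrane-bound, SEMA4B was past the rule in all 4 sublines in opposite directions. It had 39.1 FPKM in parental C4-2B, 11.0 in its subline TaxR and 13.2 in CabR, but 14.7 in parental DU145, 37.3 in its subline DTXR and 112 in CTXR. SEMA6B, a ligand of A-type plexins, was lower in DTXR (16.5 FPKM in parental DU145, 0.348 in its subline DTXR, 10.4 in CTXR), the opposite pattern to SEMA3A.

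Of the 5 measured VEGF ligands and receptors, VEGFA, a ligand of NRP1, was lower in TaxR (log2 ratio -2.42) and CabR (-3.29). VEGFC, the lymphatic growth factor that binds NRP2, was listed at 0 in all C4-2B lines and had 0.800 FPKM in parental DU145, 8.60 in its subline DTXR and 5.28 in CTXR. VEGFB was higher in CTXR (20.3 FPKM in parental DU145, 37.9 in its subline DTXR, 47.7 in CTXR). The receptor genes FLT1 and KDR reached 1 FPKM in no library. The third receptor gene of the list, FLT4, had 6.70 FPKM in parental DU145, 6.83 in its subline DTXR and 7.70 in CTXR. In the C4-2B lineage FLT4 had 0.733 FPKM in parental C4-2B, 0.577 in its subline TaxR and 1.20 in CabR. Of 8 measured processing and co-receptor genes, the plexin partner MET was higher in DTXR (9.34, 48.6 and 15.4 FPKM in DU145, DTXR and CTXR), as SEMA3A and NRP1 were. The adhesion molecule L1CAM, a co-receptor for SEMA3A, was lower in CTXR (2.54, 0.961 and 0.214 FPKM).

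Of 27 measured genes of plexin signalling, RHOD was higher and DPYSL4 lower in both TaxR and CabR. In DTXR 3 were higher (5.37% of all measured genes) and MICAL2 lower (5.1%). In CTXR 4 were higher (7.45%) and MICAL2 lower (5.47%). The collapsin response mediator DPYSL2 (CRMP2), which carries the SEMA3A signal to microtubules, had 18.9 FPKM in parental DU145, 44.6 in its subline DTXR and 114 in CTXR. The cofilin kinase LIMK1 had 9.76, 37.2 and 25.4 FPKM. In the C4-2B lineage DPYSL4 was lower (14.4 FPKM in parental C4-2B, 5.49 in its subline TaxR, 3.78 in CabR) and the GTPase RHOD, which binds plexins, higher (16.0, 40.3 and 50.3 FPKM). The median of this list was 0.25 in DTXR and 0.20 in CTXR, and 0.03 in TaxR and 0.01 in CabR.

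**Figure D5:**
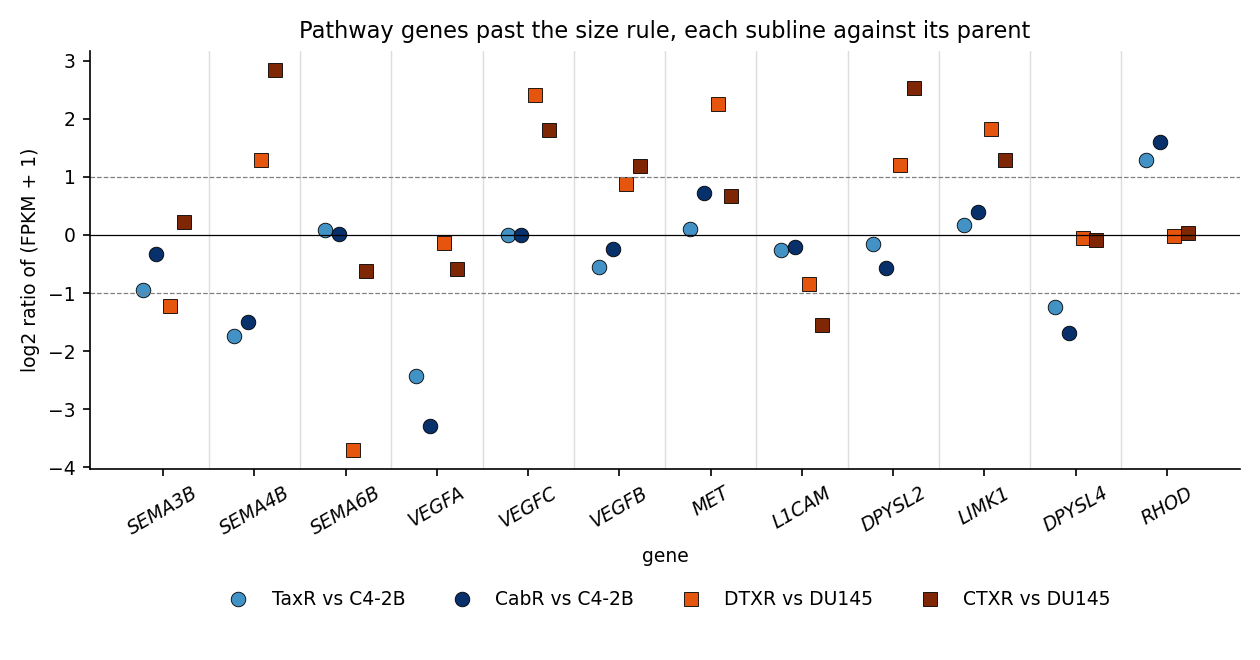
Difference in log2(FPKM + 1) from the parental line for 12 genes of the wider pathway, up to 4 per list and chosen by a rule on these ratios, with circles for the C4-2B lineage, squares for the DU145 lineage and dashed lines at 1 and -1. SEMA4B lies below -1 in both C4-2B sublines and above 1 in both DU145 sublines, and VEGFC, DPYSL2 and LIMK1 lie above 1 in both DU145 sublines alone.

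Genes with the most similar pattern over the 6 libraries were named for the 4 members that varied most, as a description without a test. For SEMA3A these were SDK1 (Pearson r = 0.999), EVC2 (0.996) and GKN1 (0.995), each at its highest in DTXR, with 1.64, 1.51 and 1.05 FPKM there. For SEMA3E they were TTC7A, SLC35D1 and CNN3 (0.9998, 0.9997 and 0.9996), for SEMA3F ATPAF2, FRAT1 and KIF9 (0.998, 0.997 and 0.997), and for SEMA3C PHTF1 (0.995) and NBL1 (0.994). Of 9000 coding genes compared, 11.8% reached r = 0.95 with SEMA3E, 9.6% with SEMA3F, 2.31% with SEMA3C and 1% with SEMA3A. With 6 libraries that fall into 2 lineages, such values are common for a gene that separates the lineages.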

How the data were processed

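RNA was measured in 6 cell lines, 1 library each, grouped by the phenotype labels. Per the labels' protocols, TRIzol RNA was made into stranded mRNA libraries. HISAT, StringTie, Cuffnorm and GRCh38 are named by the submitters' processing notes, with no version in any source used here. Per the file headers, the authors deposited FPKM, for 60658 Ensembl identifiers. They are estimates rather than counts, which excludes count models, and a listed 0 may be a failed estimate. Whether counting used strand is not stated in them.

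A symbol table named 56550 identifiers, and GENCODE release 29 (GRCh38) held 57047. Values were used as log2(FPKM + 1), which understates changes of low genes. A gene counted as measured at 1 FPKM or more in any library, which 17436 did. With 1 library per line, a gene was called by a log2 ratio of at least 1. limma used 3 stages plus lineage, an intensity trend and two-sided tests, adjusted over all measured genes at 0.05, and was tested on simulated data. Approximate fragments were derived from the modal lowest FPKM times length of single-transcript genes and the longest GENCODE transcript of a gene. They are not exact counts.

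All 10 members were named. From each other list up to 4 genes were named, those past the rule in most subline-against-parent comparisons and then by size. The genes between SEMA3C and ABCB1 and the 3 most correlated genes for the 4 most variable members were named too. Some genes named by the rule are left out of the text. Further genes named beside these were chosen after their values were seen. The members, lists and rules were chosen with earlier results of these data known. The alternatives covered pseudocounts, filters, rescalings, removal of the DU145-side share from TaxR, and variants of the limma fit. The software was limma 3.58.1 in R 4.3.3, and numpy 2.4.6, pandas 2.3.3 and matplotlib 3.10.9 in Python 3.11.15.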

Additional observations from a re-analysis of the deposited data

Results flagged for a closer look

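SEMA3D was below its parent in both C4-2B sublines and above it in both DU145 sublines. On the log2(FPKM + 1) scale TaxR stood at -0.25 and CabR at -0.10 from C4-2B, and DTXR at 0.036 and CTXR at 0.92 from DU145. None of them passed the size rule, the difference between the lineages was not tested, and the gene was listed at 0 in TaxR and exceeded 1 FPKM in CTXR alone.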

How the results depend on the processing

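Of 122 recomputed counts of members past the size rule or the limma threshold, 107 stayed within 1.5 times the reported count and 15 moved. Of 445 recomputed log2 ratios of single members 18 came past the rule, 1 fell short of it and none of the ratios past the rule changed sign. With a pseudocount of 0.1 the counts became 1 higher (SEMA3E) and 2 lower (SEMA3D, NRP2) in TaxR, 2 higher and 1 lower for CabR over C4-2B, and 2 higher and 1 lower for CabR over TaxR. They became 1 lower (SEMA3F) in DTXR, 2 higher in CTXR, 1 higher in CTXR against DTXR, and 5 higher in DU145 against C4-2B. With a pseudocount of 0.5 there was 1 higher in TaxR, 1 lower in DTXR, 2 higher in CTXR and 1 higher (SEMA3D) in CTXR against DTXR. With every library brought to one total FPKM, 0 members were higher in CabR, because SEMA3C came to 0.91. That scaling moved the median of all genes to -0.12 in TaxR and to -0.15 in DU145 against C4-2B. Removing the DU145-side share from TaxR changed no count of members, but it took at most 0.873 FPKM from any member. It brought SEMA3E in TaxR from 0.782 to 0.130 FPKM, below the 0.227 of CabR. The direction from TaxR to CabR thus turned for SEMA3E, which was under the rule there in the main setting too. limma called 0 members under every variant run on all 6 libraries. That does not show the members unchanged, since the main fit did not call ABCB1 either. With a pseudocount of 0.1 limma called 1 of all genes, for cabazitaxel resistance. Its fit without a filter on low values was not run, since most of those genes have no variance. No paired analysis was possible because the labels give no replicate numbers beyond the lineages, which the limma fit already holds as a term. SEMA3A in the C4-2B lineage, at fewer than 3 fragments a library, cannot show a difference at this depth, and folds against levels of a few fragments, as for NRP2 and PLXNA2, are imprecise.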

Other observations

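The list of other plexins holds PLXNA3 and PLXNA4, of the A type that pairs with NRP1 for SEMA3A, and plexins of the B and C types. The 4 measured genes separated the lineages, with every C4-2B line above every DU145 line. Of all measured genes 28.6% did so in this direction and 55.9% in either. All 4 measured genes were lower in DU145 than in C4-2B (19.5% of all measured genes were lower). PLXNB2 had 78.8 FPKM in parental C4-2B, 64.2 in its subline TaxR and 57.3 in CabR, and 23.3 in parental DU145, 13.5 in its subline DTXR and 22.8 in CTXR. PLXNB3 had 18.1, 18.7 and 17.4 FPKM in the C4-2B lineage and 0.358, 1.12 and 0.874 in the DU145 lineage, in the same order of lines.

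Of the 10 measured semaphorins of classes 4 to 7, each had a higher level in CTXR than in DTXR, with a median log2 ratio of 0.33 beside 0.00 for all measured genes. SEMA4B, SEMA6B and SEMA6C were past the size rule (7.29% of all measured genes were higher and 5.25% lower). The other 7 were within it. This shared direction was picked after the values were seen, with 1 library per line, and was not tested. SEMA4G had 9.85 FPKM in parental DU145, 15.6 in its subline DTXR and 17.0 in CTXR, and at most 0.0376 in any C4-2B line. SEMA4A showed the reverse, with 12.9 to 13.7 FPKM in the C4-2B lineage and at most 0.608 in the DU145 lineage.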
